A study of Rattus norvegicus with 11 samples.

Results

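Expression of 10 genes that handle iron and copper (the members) was compared in the rat dentate gyrus after traumatic brain injury (TBI). The members were Cp, Cybrd1, Atp7a, Atp7b, Tf, Tfrc, Slc11a2, Slc40a1, Aco1 and Ireb2. They were chosen by name for their roles, with earlier results of these data known. Each gene was read from probe sets annotated with its symbol alone, and where a gene had several, the one brightest on average across the 11 arrays represented it. These genes had 11 such probe sets among the 29214 of the array, 2 of them for Cybrd1, and 10 of 10 genes passed the filter on low signals and were tested among 17905 probe sets of 16572 genes.

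The arrays compared 6 rats with lateral fluid-percussion injury (FPI), in which a fluid pulse strikes the exposed dura, with 5 sham operated rats, called controls, 1 array per rat. All were adult male Sprague-Dawley rats, and every control had the anesthesia, the left craniectomy and the other surgery without the impact. The labels name no transgene, and the left dentate gyrus with the hilus was taken 90 days after the operation. Values are log2 signals after normalization across arrays, so a difference of 1 is a doubling of signal, and a signal at or below 3.06 was taken as background. The tissue was bulk RNA, in which more or fewer cells of a type and more or less RNA per cell cannot be told apart.

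Iron travels in blood and interstitial fluid bound to transferrin, enters cells through the transferrin receptor, leaves the endosome through a divalent metal transporter and leaves the cell through ferroportin. It is reduced before it crosses a membrane inward and oxidized again on the way out, the latter by ceruloplasmin, a copper enzyme that in the brain is carried mainly on astrocytes. Copper itself is moved into the secretory pathway by ATP7A and ATP7B, which is how ceruloplasmin obtains its copper. Inside the cell, the iron regulatory proteins bind iron-responsive elements in mRNAs when iron is scarce and stabilize the mRNA of the transferrin receptor. In the brain, transferrin mRNA is found mainly in oligodendrocytes and in the choroid plexus.

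Some arrays stood apart within their groups. After group means were removed, the first component of the tested probe sets held 63.9% of the variance between rats, and control rat 2, TBI rat 1 and TBI rat 3 scored 0.45, 0.49 and 0.42 on it while the other 8 rats lay between -0.34 and 0.06. In the whole comparison, 27 of 17905 probe sets, 0.151%, passed an adjusted p of 0.05 (limma, Benjamini-Hochberg), and by the unadjusted rule (p under 0.05) 4.96% were higher in TBI and 1.87% lower. The dentate granule neuron genes, among them Prox1 (9.31 in TBI and 9.27 in control rats), were measured in both groups, and 0 of 12 passed either threshold.

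Of the 10 members, 0 passed the adjusted threshold. At an unadjusted p under 0.05, 3 (Cp, Atp7b and Tf) had a higher mean in TBI and 0 a lower one, against 4.96% and 1.87% of all probe sets. With each array centred on its median these counts were 2 higher (Cp and Atp7b) and 1 lower (Slc11a2). The sign of the difference was positive in 5 members and negative in 5, against 57.2% positive over all probe sets, and the median difference was -0.00054 against 0.011 over all probe sets. The 3 genes with higher means therefore stood among 7 with small or scattered differences, and the account below follows their roles.

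**Figure D1:**
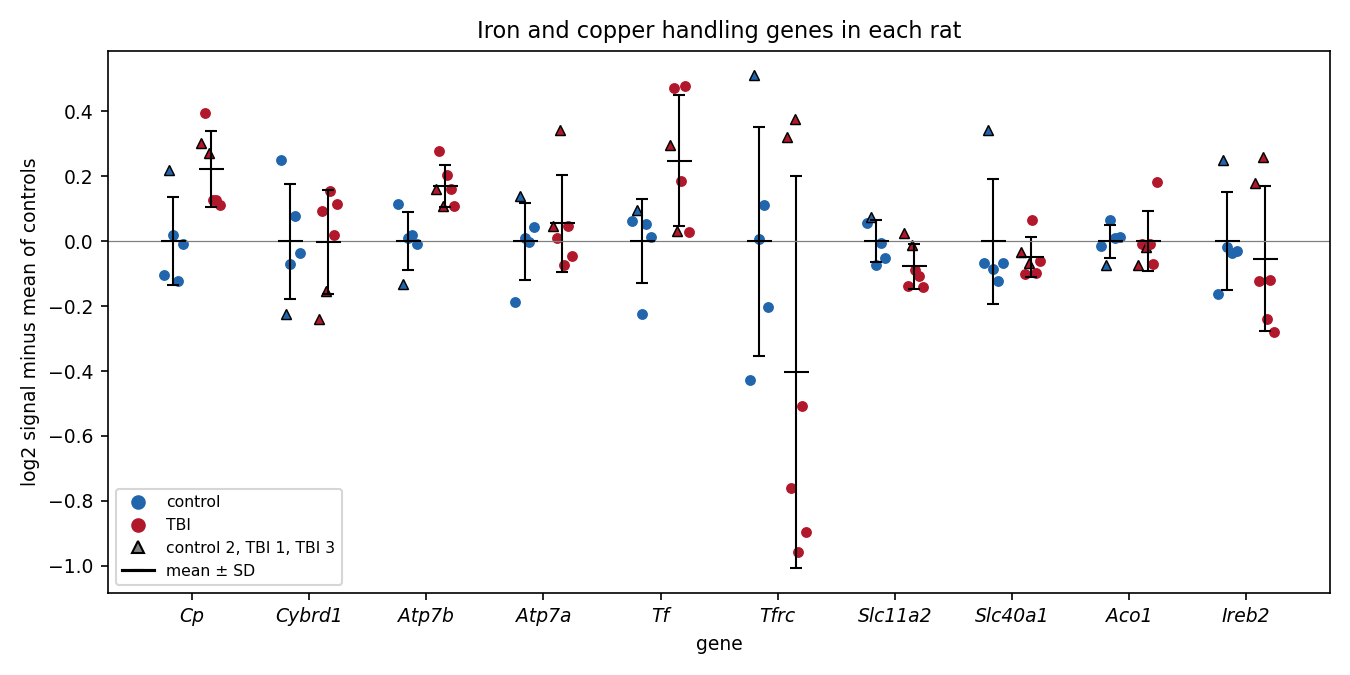
Log2 signal of each member in each rat, as the difference from the mean of the 5 controls, by gene. Circles and triangles are single rats (blue, control; red, TBI; triangles, control rat 2, TBI rat 1 and TBI rat 3), and bars give the mean and SD. Cp, Atp7b and Tf lie higher in TBI, while Tfrc spreads over the widest range.

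The promoters of the 3 genes with higher means are shown because metal response elements are known from other metal-handling genes, such as the metallothioneins. The windows are the 250 bases before the start site in the RefSeq annotation of rat build GRCr8, read 5′ to 3′ on the gene's strand, and all 10 members matched an entry. Capitals mark matches, on either strand, to the core of the metal response element (TGCACNC or TGCGCNC) or to TATAAA, which overlaps itself on the 2 strands in Cp.
Cp, chr2:104368420-104368669, plus strand: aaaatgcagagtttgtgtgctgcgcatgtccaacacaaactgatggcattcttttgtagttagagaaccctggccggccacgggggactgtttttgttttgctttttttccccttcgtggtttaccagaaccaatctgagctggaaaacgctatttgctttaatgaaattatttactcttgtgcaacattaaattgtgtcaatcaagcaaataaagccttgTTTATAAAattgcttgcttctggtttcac
Atp7b, chr16:76654475-76654724, plus strand: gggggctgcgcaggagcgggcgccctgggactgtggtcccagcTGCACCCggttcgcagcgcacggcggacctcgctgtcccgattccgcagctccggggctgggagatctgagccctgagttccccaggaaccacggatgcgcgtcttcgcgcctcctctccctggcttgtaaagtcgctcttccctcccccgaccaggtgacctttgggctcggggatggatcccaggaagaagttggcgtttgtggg
Tf, chr8:112695377-112695626, minus strand: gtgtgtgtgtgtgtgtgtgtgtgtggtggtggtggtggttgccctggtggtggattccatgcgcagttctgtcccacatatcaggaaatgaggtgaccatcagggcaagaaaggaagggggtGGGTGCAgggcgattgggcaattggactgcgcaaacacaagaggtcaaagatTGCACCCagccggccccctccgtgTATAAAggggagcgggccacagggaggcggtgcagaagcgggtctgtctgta
A metal response element core was found at 207 to 201 bases before the start in Atp7b and at 128 to 122 and 76 to 70 bases before it in Tf. TATAAA was found within the 29 bases before the start in Cp and at 52 to 47 bases before it in Tf. Of 33360 rat promoters of the same length, 20.6% held a metal response element core and 12.9% held TATAAA. Among the other members, metal response element cores were found in Tfrc, which also held the hypoxia response element core ACGTG (16.6% of promoters), and TATAAA in Atp7a. The antioxidant response element core TGACNNNGC, present in 10.1% of promoters, was in none of the members' windows. These matches are descriptions of letters and were not tested against the expression values.

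Ceruloplasmin, encoded by Cp, is the multicopper ferroxidase that oxidizes iron as it leaves the cell. Its log2 signals were 4.05, 4.37, 4.17, 4.03 and 4.14 in control rats 1 to 5 and 4.45, 4.55, 4.42, 4.28, 4.28 and 4.26 in TBI rats 1 to 6. Control rat 2 was the highest control and lay within the TBI range, the other 4 controls lay below all TBI rats, and 3 of the 6 TBI rats were above every control. The means were 4.37 ± 0.12 (SD, n = 6) for TBI and 4.15 ± 0.14 (SD, n = 5) in the control group. The log2 difference was 0.22 (SE 0.072, 95% interval 0.066 to 0.38, unadjusted p = 0.0093, adjusted p = 0.47 in limma), a 1.17-fold higher signal. It was 0.25 without the 3 rats that stand apart (adjusted p = 0.097), and its unadjusted p was under 0.05 in all 21 alternatives tried for it. The mean log2 signal of Cp was low, 4.27, at or above that of 20.8% of the tested probe sets. The alternative filter, a mean of at least 5, left Cp out, so it was not tested there.

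Cytochrome b reductase 1, encoded by Cybrd1, reduces iron outside the cell before uptake, and its 2 probe sets gave different answers. On the probe set with the higher mean, which represents the gene by the rule, the controls read 5.38, 4.91, 5.06, 5.21 and 5.09 and the TBI rats 4.89, 5.22, 4.98, 5.29, 5.15 and 5.25. The groups overlapped fully, with the 3 rats that stand apart lowest, and the difference was -0.0018 (SE 0.092, 95% interval -0.20 to 0.20, adjusted p = 1.0). On the dimmer probe set the controls read 4.63, 4.47, 4.72, 4.58 and 4.76 (to 2 decimals) and the TBI rats 4.78, 4.88, 4.76, 4.97, 4.85 and 4.93. All 6 TBI rats were above all 5 controls there, though TBI rat 3 (4.7583) and control rat 5 (4.7559) nearly touched, and 0.832% of all probe sets separated in this direction. Its difference was 0.23 (SE 0.058, unadjusted p = 0.0020, adjusted p = 0.25) and ranged from 0.19 to 0.26 over the alternatives, with an adjusted p of 0.051 without the 3 rats. On this probe set the 3 rats were the lowest control and the lowest TBI rats. The p without them is therefore a description and no independent test. The dimmer probe set minus the brighter one in the same rat averaged -0.27 in TBI and -0.50 in control rats. On average the 2 thus lay closer together in TBI. This group difference of 0.23 had an exact permutation p of 0.0065 (462 placements, two-sided, adjusted p = 0.0087 over 4 such contrasts, added after the values were seen). Without the 3 rats it was 0.20 (exact p = 0.086 over 70 placements). Which exons each probe set reads was not analysed here.

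**Figure D2:**
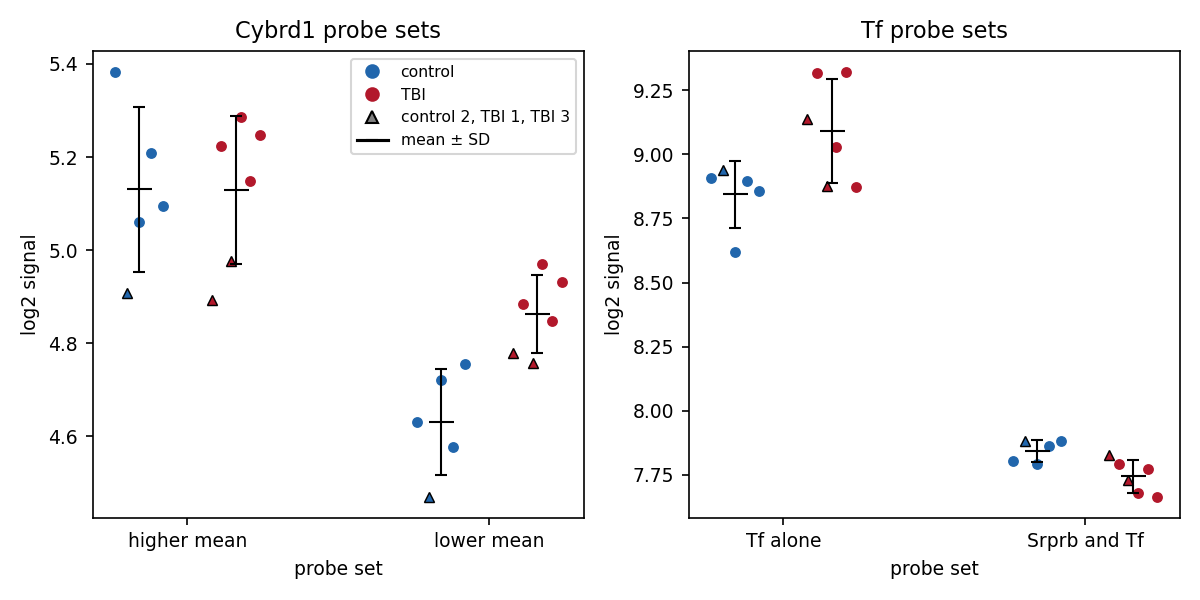
Log2 signal of the 2 probe sets of Cybrd1 (left) and of the Tf probe set and the one shared by Srprb and Tf (right), by rat, with mean and SD. Symbols are blue for control, red for TBI, and triangles for control rat 2, TBI rat 1 and TBI rat 3. TBI rats lie above controls on the dimmer Cybrd1 probe set and overlap on the other.

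Atp7b and Atp7a encode the copper-transporting ATPases of the secretory pathway. Atp7b read 5.39, 5.14, 5.28, 5.29 and 5.26 in controls and 5.43, 5.55, 5.38, 5.47, 5.43 and 5.38 in TBI rats. Control rat 1 reached into the lower end of the TBI range, and 4 of the 6 TBI rats were above every control. The means were 5.44 ± 0.064 (SD, n = 6) for TBI and 5.27 ± 0.089 (SD, n = 5) for control rats. The difference was 0.17 (SE 0.048, 95% interval 0.066 to 0.28, unadjusted p = 0.0041, adjusted p = 0.34), or 1.13-fold, and its unadjusted p was under 0.05 in all 22 alternatives. Array weights, which count arrays that deviate less more heavily, gave an adjusted p of 0.038, and the fit without the 3 rats gave 0.15 (adjusted p = 0.12).

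For Atp7a the groups overlapped more widely. Its controls lay at 5.03, 5.36, 5.23, 5.22 and 5.27 and its TBI rats at 5.27, 5.23, 5.57, 5.15, 5.27 and 5.18, so that TBI rat 3 was the highest of all and control rat 1 the lowest. The difference was 0.055 (SE 0.077, 95% interval -0.11 to 0.22, adjusted p = 0.94). Without TBI rat 3 it was -0.0030. The difference between the 2 pumps' changes was not tested.

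Tf encodes transferrin, the iron carrier. Controls read 8.91, 8.94, 8.62, 8.90 and 8.86, and TBI rats 9.14, 9.32, 8.88, 9.03, 9.32 and 8.87. TBI rats 1, 2, 4 and 5 lay above every control, TBI rats 3 and 6 lay among the controls, and control rat 3 lay below all others. The means were 9.09 ± 0.20 (SD, n = 6) for TBI and 8.84 ± 0.13 (SD, n = 5) for control rats. The difference was 0.25 (SE 0.095, 95% interval 0.040 to 0.46, unadjusted p = 0.023, adjusted p = 0.62), or 1.19-fold. It was 0.31 without the 3 rats (adjusted p = 0.15) and 0.41 with array weights (adjusted p = 0.046). Leaving out control rat 3 took it to 0.19 (unadjusted p = 0.068), and leaving out TBI rat 2 or TBI rat 5 gave 0.20 (unadjusted p = 0.052 in each). The probe set that the annotation assigns to both Srprb, a signal recognition particle receptor subunit, and Tf was lower in TBI by 0.099 on the log2 scale, at -0.099 (SE 0.039, unadjusted p = 0.027, adjusted p = 0.62). This contrast was chosen with the opposite signs of the 2 probe sets already seen, so its p is a description and no independent test. The Tf probe set minus the shared one was larger in TBI by 0.35, with all 6 TBI rats above all controls (exact permutation test over 462 placements, two-sided p = 0.0043, adjusted p = 0.0087 over the 4 contrasts). Without the 3 rats it was 0.42 (exact p = 0.029). The signals of Srprb and Tf on that probe set were not separated.

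Of the 16 oligodendrocyte genes tested, 0 passed either threshold, 12 had a negative difference, and the list's median was -0.030. The nearest to the threshold were Fa2h (-0.14), Opalin (0.17), Mobp (-0.15) and Mog (-0.090), myelin genes with adjusted p between 0.83 and 0.89. Within the groups, however, rats high in Tf were high in these genes: TBI rat 5 had the highest mean z-value of the list (0.85) and the highest Tf, TBI rat 6 the lowest of both among TBI rats (-0.85), and control rat 3 the lowest of both among controls (-0.54). Over all 11 rats Pearson's r was 0.58 (permutation p = 0.061, adjusted p = 0.094 over 4 relations, those of Cp with astrocyte and choroid plexus genes included) and Spearman's rho 0.55 (permutation p = 0.088, adjusted p = 0.12). With group means removed they were 0.89 (permutation p = 3.5e-04) and 0.95 (permutation p = 4e-05), in shuffles that took no account of the means fitted beforehand. With the 2 rats most distant from the list's median left out, r was 0.40 (permutation p = 0.30), and the relation over all rats passed the threshold in neither form.
Tf relative to the mean log2 signal of the 16 oligodendrocyte genes was 1.90 ± 0.14 (SD) in TBI and 1.61 ± 0.063 (SD) in control rats, with all 6 TBI rats above all 5 controls. This difference of 0.29 had an exact permutation p of 0.0043 (two-sided, adjusted p = 0.0087 over the 4 contrasts), and without the 3 rats it was 0.36 (exact p = 0.029, the smallest that 70 placements allow). The contrast was added with the higher Tf and the list's median already seen, so its p is a description and no independent test. The choroid plexus genes, the other known site of Tf mRNA in brain, had 0 of 14 past either threshold and a summed linear signal of 322 to 348 in TBI and 309 to 392 in control rats.

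**Figure D3:**
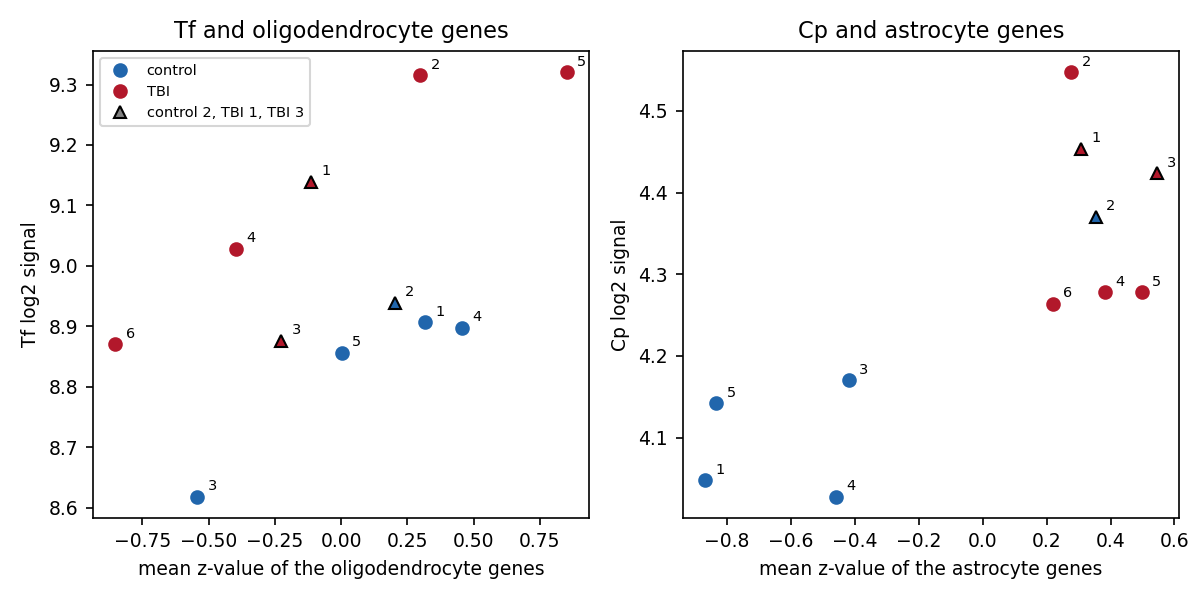
Log2 signal of Tf against the mean z-value of the 16 oligodendrocyte genes (left) and of Cp against that of the 13 astrocyte genes (right), 1 point per rat with its number. Blue is control, red is TBI, and triangles mark control rat 2, TBI rat 1 and TBI rat 3. Within each group the rats high on the x axis are mostly high in Tf, and in the right plot control rat 2 lies among the TBI rats on both axes.

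Of the 13 astrocyte genes tested, 9 differences were positive and 4 negative, and the list's median was 0.17. At the adjusted threshold 3 rose: Gfap, the astrocyte intermediate filament, by 0.83 (adjusted p = 1.4e-05), Mlc1, an astrocyte membrane protein, by 0.29 (adjusted p = 0.024), and Cd44, a hyaluronan receptor, by 0.41 (adjusted p = 0.049). Vim, another intermediate filament, differed by 0.61 without passing (adjusted p = 0.24). By the unadjusted rule 6 of the 13 were higher and 0 lower, against 4.96% and 1.87% of all probe sets. The negative differences were those of the glutamate transporters Slc1a3 (-0.092) and Slc1a2 (-0.0048), the connexin gene Gjb6 (-0.085) and Aldoc (-0.093), with adjusted p between 0.89 and 0.99. The list's summed linear signal was 9146 to 9853 in TBI and 8094 to 9783 in control rats. Mean z-values of the list fell into separate sets, controls 1, 3, 4 and 5 between -0.87 and -0.42 and the other 7 rats between 0.22 and 0.54, and Cp was lowest in the same 4 controls. Since a correlation over both sets would mostly restate this split, the planned one over all 11 rats was computed but is not given. Within the 7 rats, a choice made after the split was seen, Pearson's r was -0.12 (exact permutation p = 0.78) and Spearman's rho -0.018 (exact permutation p = 0.99). Over all 11 rats with group means removed, r was 0.55 (permutation p = 0.072) and rho 0.41 (permutation p = 0.21). Relative to the mean log2 signal of the astrocyte genes, Cp differed between the groups by 0.0016 (exact permutation p = 0.98, adjusted p = 0.98 over the 4 contrasts). That list mean includes the genes that rose most, Gfap among them, and the part of astrocytes in the Cp difference was not tested.

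The choroid plexus also makes ceruloplasmin. Its defining gene Ttr, a thyroid hormone carrier, read 6.84 in control rat 2 and 6.65 in control rat 4 against 4.72 to 4.98 in the other controls and 5.12 to 5.88 in TBI rats. Control rat 2 had the highest Cp of the controls and control rat 4 the lowest. The mean z-value of the choroid plexus genes, most of them of low signal (mean log2 values from 3.01 to 5.57), did not follow Ttr: it was -0.26 and -0.22 in these 2 rats and 0.45 in control rat 1. Its relation to Cp is therefore not given, and the part of the choroid plexus in the Cp values was not tested. Of the choroid plexus genes, Aqp1 (0.13), Folr1 (0.079), Cldn2 (0.086) and Calml4 (-0.062) had the lowest p, with adjusted p between 0.75 and 0.91.

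Tfrc encodes the transferrin receptor, which brings iron-loaded transferrin into the cell. Controls read 6.64, 7.58, 7.08, 7.18 and 6.87, and TBI rats 7.39, 6.31, 7.45, 6.11, 6.56 and 6.18. TBI rats 2, 4, 5 and 6 were below every control, while TBI rats 1 and 3 lay above all controls but control rat 2, which was the highest of all. The means were 6.67 ± 0.60 (SD, n = 6) for TBI and 7.07 ± 0.35 (SD, n = 5) for control rats. The difference was -0.40 (SE 0.27, 95% interval -0.99 to 0.18, unadjusted p = 0.16, adjusted p = 0.86), within the spread between rats. Without TBI rat 3 alone it was -0.56 (unadjusted p = 0.043, adjusted p = 0.56). The 3 highest rats were the 3 that stand apart on the first component. Without them the difference was -0.65 (SE 0.13, unadjusted p = 4.6e-04, adjusted p = 0.043). That fit was added after the values were seen, and since the rats it leaves out are the 3 highest in Tfrc, it narrows the spread of Tfrc within the groups, so its p is a description and no independent test. It held 4 rats of each group, and called 179 probe sets higher and 92 lower.

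**Figure D4:**
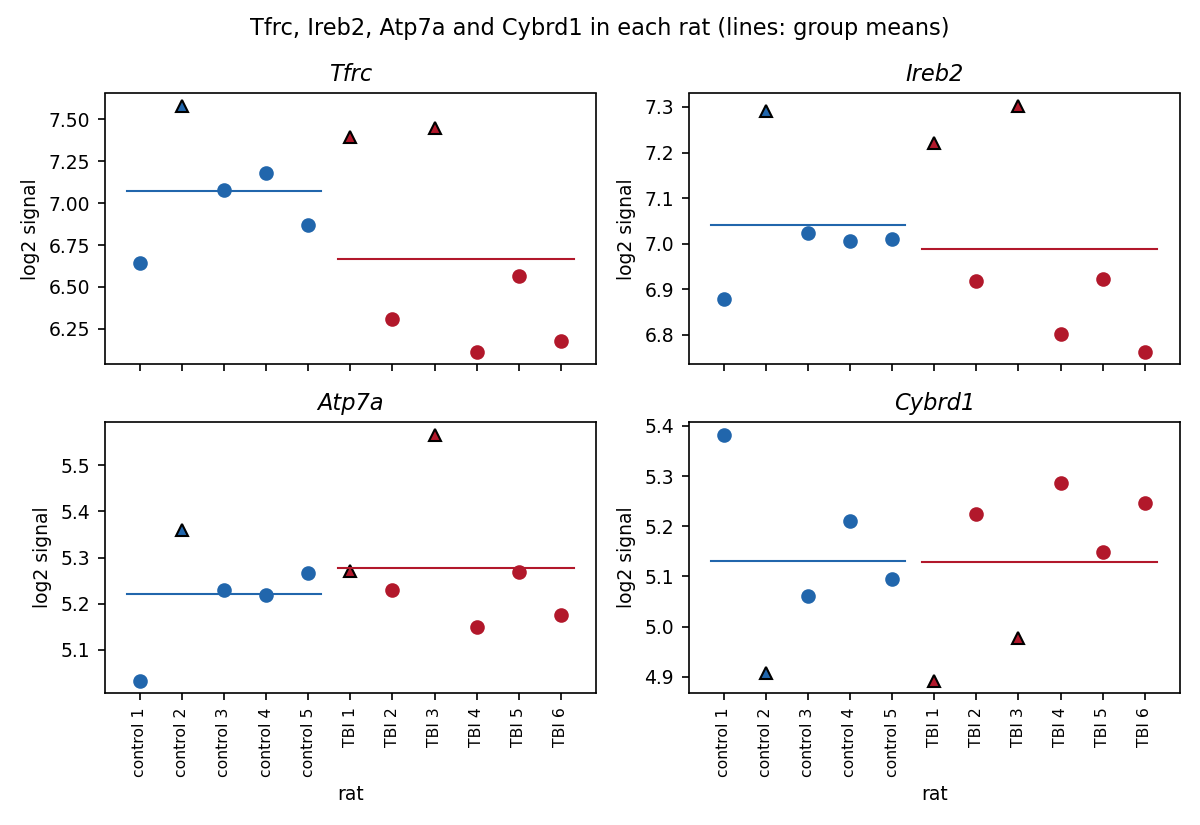
Log2 signal of Tfrc, Ireb2, Atp7a and Cybrd1 (the probe set with the higher mean) in each rat, with lines at the group means. Triangles mark control rat 2, TBI rat 1 and TBI rat 3, which hold the 3 highest Tfrc and Ireb2 signals and the 3 lowest Cybrd1 signals.

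Ireb2 and Aco1 encode the iron regulatory proteins, which bind iron-responsive elements, and Aco1 also acts as the cytosolic aconitase. Ireb2 read 6.88, 7.29, 7.02, 7.01 and 7.01 in controls and 7.22, 6.92, 7.30, 6.80, 6.92 and 6.76 in TBI rats, with the 3 rats highest in Tfrc also highest here. Other genes lay closer to each of them than they did to each other (r = 0.97 with group means removed): Caprin1 had r = 0.99 with Tfrc and Hif1a r = 0.99 with Ireb2, both named after their values were seen. The Ireb2 difference was -0.054 (SE 0.11, 95% interval -0.28 to 0.18, adjusted p = 0.95), and -0.13 without the 3 rats (unadjusted p = 0.034, adjusted p = 0.21). Since those 3 rats were the highest in Ireb2, that p is a description and no independent test, as for Tfrc. Without control rat 2 alone the Ireb2 difference was 0.0087. Aco1 read 7.18, 7.12, 7.26, 7.20 and 7.21 in controls and 7.12, 7.18, 7.18, 7.19, 7.13 and 7.38 in TBI rats, with TBI rat 6 the highest. Its difference was 0.00071 (SE 0.049, 95% interval -0.11 to 0.11, adjusted p = 1.0), so that a change beyond 0.11 in either direction lay outside the interval.

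Slc11a2 encodes the divalent metal transporter DMT1, which moves iron out of the endosome. Controls read 7.52, 7.54, 7.39, 7.46 and 7.41, and TBI rats 7.49, 7.33, 7.45, 7.37, 7.36 and 7.32. TBI rats 2, 4, 5 and 6, the ones low in Tfrc, were below every control. The difference was -0.077 (SE 0.044, 95% interval -0.17 to 0.019, unadjusted p = 0.11, adjusted p = 0.82), -0.098 without TBI rat 1 (unadjusted p = 0.043, adjusted p = 0.42) and -0.10 without the 3 rats (unadjusted p = 0.030, adjusted p = 0.20). Of the 11 fits that left out a single rat, 1 had an unadjusted p under 0.05. Control rat 2 was the highest control in Slc11a2, and TBI rats 1 and 3 were the highest TBI rats. The p-values of the fits without them are therefore descriptions and no independent tests.

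Slc40a1 encodes ferroportin, the iron exporter. Controls read 4.87, 5.27, 4.85, 4.81 and 4.87, and TBI rats 4.90, 4.83, 4.87, 5.00, 4.84 and 4.87. Control rat 2 was far above all other rats, and the remaining 10 lay close together. The difference was -0.049 (SE 0.077, 95% interval -0.22 to 0.12, adjusted p = 0.94), and it turned to 0.036 without control rat 2. Control rat 2 also had the highest mean z-value of the endothelial genes (0.90) and one of the highest of the microglia and phagocyte genes (0.64, below 0.97 in TBI rat 4). Over the 11 rats Slc40a1 and the microglia and phagocyte genes had a Pearson's r of 0.56 (permutation p = 0.071, adjusted p = 0.094) and a Spearman's rho of 0.54 (permutation p = 0.091, adjusted p = 0.12). With group means removed r was 0.84 (permutation p = 0.0027) and rho 0.54 (permutation p = 0.091), in shuffles that took no account of the means fitted beforehand. With the 2 rats most distant from the list's median left out r was 0.58 (permutation p = 0.098). Those 2 were control rats 1 and 4, so control rat 2 was kept in all of these correlations.

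**Figure D5:**
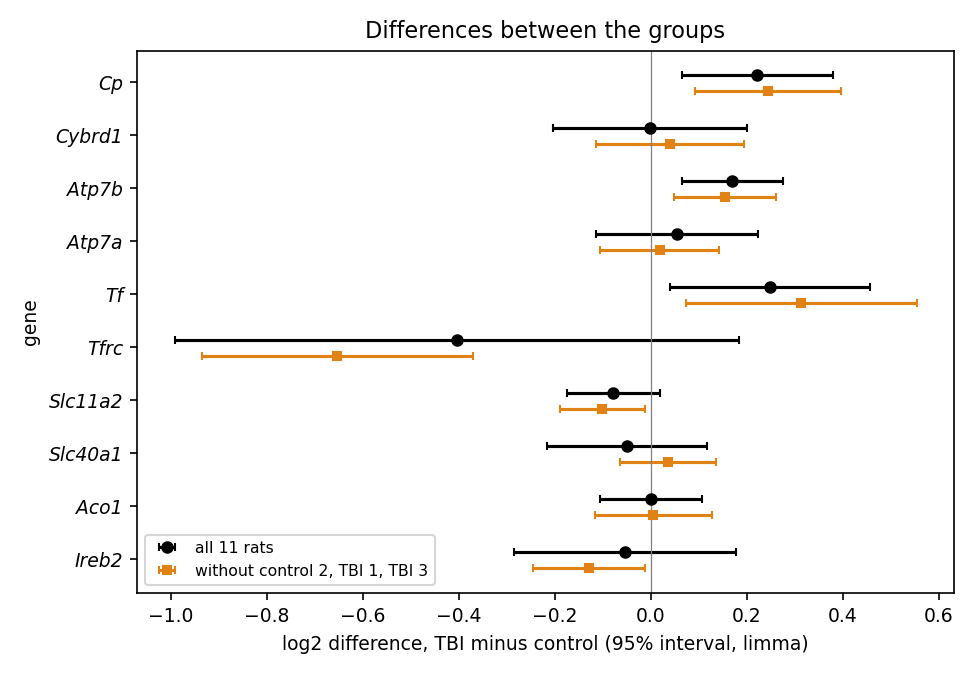
Log2 difference, TBI minus control, of each member with its 95% interval from limma. Black circles are all 11 rats and orange squares the fit without control rat 2, TBI rat 1 and TBI rat 3. With all rats the intervals of Cp, Atp7b and Tf lie above 0, and without the 3 rats those of Tfrc, Slc11a2 and Ireb2 lie below it. The second fit was added after the values were seen, and the 3 rats were the highest in Tfrc and Ireb2. In Slc11a2 they were the highest control and the highest TBI rats.

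Among 51 other iron genes tested, 0 passed the adjusted threshold, 33 differences were positive and 18 negative, and the median was 0.026. By the unadjusted rule 6 were higher and 0 lower (4 higher and 3 lower with arrays centred on their medians). Over all probe sets 57.2% of differences were positive, the median was 0.011, and 4.96% were higher and 1.87% lower by that rule. Bmp6, the growth factor that induces hepcidin in liver, read 7.60 to 7.77 in controls and 7.79 to 8.12 in TBI rats without overlap, a difference of 0.31 (adjusted p = 0.17). TBI rats lay above all controls in 0.832% of all probe sets. Ftl1, the ferritin light chain of iron storage, differed by 0.15 (adjusted p = 0.27), and control rat 2 (10.73) lay above TBI rat 6 (10.72). Hmox1, the heme oxygenase that frees iron from heme, differed by 0.17 and Hpx, the heme carrier hemopexin, by 0.12 (adjusted p = 0.63 for both). The other 2 were Hamp, which encodes hepcidin, and Blvra, a biliverdin reductase.

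Among 33 other copper genes tested, 0 passed the adjusted threshold, 21 differences were positive and 12 negative, and the median was 0.011. Over all probe sets 57.2% were positive and the median was also 0.011. The single gene past an unadjusted p of 0.05 was Sod3, the secreted copper and zinc superoxide dismutase. Sod3 read 7.02 to 7.26 in controls and 6.68 to 7.01 in TBI rats, a difference of -0.25 (adjusted p = 0.29). Control rat 4 (7.017) and TBI rat 4 (7.0088) nearly touched. The share of all probe sets with TBI rats below all controls was not counted, so no weight is put on the lack of overlap. Loxl3, a lysyl oxidase (0.083), Dbh, dopamine beta-hydroxylase (0.10), and Moxd1, a monooxygenase relative of it (0.14), followed, with adjusted p between 0.73 and 0.77.

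Other cell types were read from their markers. Over all probe sets, 4.96% were higher and 1.87% lower by the unadjusted rule. Of 17 microglia and phagocyte genes, Gpnmb, a gene of lipid-laden phagocytes, rose by 0.75 (adjusted p = 0.0071), Lgals3 (0.41, adjusted p = 0.096) and Cd68 (0.58, adjusted p = 0.14) did not pass, and Aif1 stood at -0.15 (adjusted p = 0.61); the summed signal was 1855 to 2199 in TBI and 1452 to 2427 in control rats. Of 13 endothelial genes, 0 passed the adjusted threshold, and by the unadjusted rule 3 were higher, Emcn (0.29), Cdh5 (0.15) and Cldn5 (0.16), with Tie1 (0.073) next. Of 10 pericyte and smooth muscle genes 0 passed and 4 were higher by the second rule, Abcc9 (0.14), Pdgfrb (0.17), Vtn (0.17) and Myh11 (0.23). Of 12 fibroblast and meningeal genes 0 passed and 2 were higher, Igf2 (0.37) and Fbln1 (0.22), with Ogn (0.29) and Col1a2 (0.096) next. Of 6 blood genes none passed either rule (Epb42 0.099, Hbb-b1 0.23, Slc4a1 -0.047, Hbe1 -0.037), and of the granule neuron genes C1ql2 (-0.19), Ppp1r1a (0.10), Tdo2 (0.043) and Maml2 (0.093) came nearest. The part of these cell types in the members' values was not tested.

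The genes whose values were most like those of the 3 members with higher means, after group means were removed over the 11 rats, were Rabgef1 (r = 0.95), Atf7ip (r = 0.93) and Pnck (r = 0.93) for Cp, and Csn2 (r = 0.97), Pglyrp1 (r = 0.94) and Kiaa1755 (r = 0.93) for Atp7b. For Tf they were Arl2 (r = 0.88), C19h1orf198 (r = 0.84) and Gpnmb (r = 0.83). All of these values come from the same 11 arrays, and the genes were picked as the highest among the probe sets tested.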

How the data were processed

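Signals on the log2 scale were deposited for 29214 probe sets, with 1 Affymetrix array (Rat Gene 1.1 ST) per rat, which the authors normalized with Robust Multi-array Average (RMA) in the oligo package (1.30.0 in the submitters' processing notes). RMA corrects background, forces the probe signals of the arrays to 1 distribution and then combines the probes of a probe set. A shift shared by all genes is thus mostly removed. The deposited arrays still differed in their medians, from 5.26 in control rat 2 to 5.35 in TBI rat 3. Depth does not apply to arrays, and the number of arrays limits the precision.

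Values below the background of 3.06, the lowest value in the part of the study's filtered table read here, were set to it (487 values of the tested probe sets), and probe sets that did not exceed it in over 5 arrays were dropped, as were those with several gene symbols (962) or none (9608). The other 17905 were tested by lmFit and eBayes of limma 3.58.1 under R 4.3.3, their p-values were adjusted together by Benjamini-Hochberg, and the threshold was 0.05. The unadjusted p under 0.05 of the study's methods was used as a second rule. Rats were grouped by their labels, and nothing was averaged before the fit. The members and gene lists were chosen with earlier results of these data known. The list of other copper genes also holds Slc11a1, a divalent metal transporter.

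Genes named were the members, up to 4 genes with the lowest p of each list and, for members with an unadjusted p under 0.05, the 3 genes most alike within groups. Prox1 and Ttr as defining markers, and Hamp, Blvra, Caprin1, Hif1a and the 4 astrocyte genes with negative differences, were named after their values were seen. Correlations used 100000 permutations, and the shuffles with group means removed took no account of the means fitted beforehand. Contrasts of 2 measures in the same rats used all 462 placements of the labels, and all 4 were added after the values were seen. Promoters were read from RefSeq (GRCr8). The fits were tested on simulated data. Python 3.11.15, NumPy 2.4.6, SciPy 1.17.1, pandas 2.3.3 and matplotlib 3.10.9 were used.

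Alternatives changed the filter (none, or a mean of at least 5), the scaling (arrays centred on their medians, quantile normalization repeated), the test (a robust prior with an intensity trend, array weights, the analysis of variance of the study's methods, replicate numbers as a block), the probe sets (those of several symbols kept, or a gene's probe sets averaged) and the rats (each left out in turn). Leaving out the 3 rats that stand apart and the other Cybrd1 probe set were added after seeing the data.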

Additional observations from a re-analysis of the deposited data

Results flagged for a closer look

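In 24 groups of rats, 1 for each of 12 probe sets in each group, 4 had a rat far from the others by Dixon's test at 95%, which chance gives in about 5% of groups. Slc40a1 was 5.2746 in control rat 2, and the gap to the nearest control took 0.882 of the range of the controls. Tf was 8.6181 in control rat 3 (0.742), Aco1 was 7.3753 in TBI rat 6 (0.738) and Atp7a was 5.5663 in TBI rat 3 (0.711).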

How the results depend on the processing

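Cp and Atp7b kept a positive difference in every alternative run for them (0.19 to 0.28 and 0.14 to 0.20), as did Tf (0.19 to 0.41), and Tfrc and Slc11a2 kept a negative one. The cause of the moves below was not tested. Same-numbered rats had residual correlations of -0.66, -0.50, -0.41, -0.26 and 0.11. Since 1 of these was above 0, they gave no sign that the replicate numbers paired the rats. With 63.9% of the variance within groups on 1 component, they could not exclude a smaller effect shared by same-numbered rats. With the replicate block, 3 probe sets were higher and 0 lower at an adjusted p under 0.05, against 25 and 2, 2 other iron genes were higher against 6, and Aco1 was at -0.035. With arrays centred on their medians, 1 member was lower, 5 probe sets were higher, 3 other iron genes and 2 other copper genes were lower with medians of -0.0029 and -0.018, and Aco1 was at -0.028. With a second quantile normalization, 6 probe sets were higher and 1 lower, 2 other iron genes were lower, 1 other copper gene was higher, and the medians were 0.0057 and -0.0097. With the analysis of variance, 7 probe sets were higher and 1 lower, 1 other iron gene was lower and 1 other copper gene higher. With array weights, 2 members passed the adjusted threshold and 1 was lower at the unadjusted one, 243 probe sets were higher and 67 lower, 1 other iron gene was lower, 5 other copper genes were higher and 2 lower, Cybrd1 was at 0.050 and Aco1 at -0.041. With the mean of a gene's probe sets, 1 probe set was lower and Cybrd1 was at 0.11, and with its other probe set at 0.23. Without the 3 rats that stand apart, 1 member passed the adjusted threshold and 3 were lower at the unadjusted one, 179 probe sets were higher and 92 lower, 2 other iron genes were lower, 6 other copper genes were higher and 4 lower, Cybrd1 was at 0.040 and Slc40a1 at 0.036.

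Leaving out each rat in turn gave 0 to 1 members lower, 4 to 31 probe sets higher (4 to 10 without any 1 of control rats 1 to 5, TBI rat 4, TBI rat 5 or TBI rat 6) and 1 to 4 lower, 3 (without TBI rat 6) to 8 other iron genes higher and 0 to 1 lower with a median of 0.014 to 0.049, and 0 to 4 (without TBI rat 1) other copper genes higher and 1 to 2 lower. Over these fits Cybrd1 ranged from -0.058 to 0.061, Atp7a from -0.0030 to 0.089, Slc40a1 from -0.080 to 0.036, Aco1 from -0.035 to 0.017 and Ireb2 from -0.12 to 0.0087.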
